A study of Mus musculus with 32 samples.

Results

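The cytochrome P450 genes of the mouse were followed in the skin of NC/Nga mice after HDM or sham, at the back and at the ear. Members were all genes whose annotated symbol has the pattern Cyp, digits, a letter and digits, with pseudogenes left out, which gave 94 of the 19505 genes with a row on the array, each represented by 1 row. P450 enzymes are haem proteins of the endoplasmic reticulum or mitochondria that use molecular oxygen to hydroxylate or epoxidise their substrates, with electrons passed on by reductase and redoxin partners. The families differ in substrate: enzymes of families 1 to 3 act on foreign chemicals and on fatty acids, family 4 hydroxylates fatty acids and eicosanoids, and the remaining families act on sterols, steroids, vitamin D or retinoic acid. In skin such enzymes are known for the local handling of retinoic acid, for barrier lipids made in the upper epidermis and for epoxides and hydroxy acids made from arachidonic acid.

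NC/Nga is an inbred strain that is prone to dermatitis, and the samples were total RNA from 8 mm punches measured on 32 single-sample Affymetrix arrays. There were 4 groups of 8 mice: HDM back skin (dorsal), sham back skin, HDM ear and sham ear, all from NC/Nga mice, housed under SPF conditions, with HDM or sham as the agent. The labels do not spell out HDM, do not describe the sham treatment and give no age, sex or dose. Both sites use the mouse numbers 1 to 8, and whether an equal number means 1 animal is not stated, so p-values measure the spread between these 32 samples. Values are log2 expression levels as the authors deposited them, and differences are HDM minus sham on that scale, given with their standard error. A gene was called at an adjusted p under 0.05 in a limma fit over all 22206 tested rows with Benjamini-Hochberg adjustment. The background of an array was the median of its negative control rows, between 4.43 and 5.38.

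Array quality differed little, with 54.4% to 62.3% of tested rows above background per array. Correlations of single arrays with the mean of their group lay between 0.975 and 0.994 (the array itself left out). The hair follicle marker list, with 14 of 16 genes measured, separated the sites as labelled, with list means of 13.63 to 15.62 in HDM back skin and 7.42 to 16.70 in sham back skin, against 3.62 to 5.07 in HDM ear and 3.91 to 6.67 in sham ear. Sham back skin mice 1 and 2 had the lowest hair list means of their group, 7.42 and 12.21, with mouse 5 close at 12.76. The same 2 arrays had the highest neutrophil list means of the group, 7.65 and 7.88, against 5.19 to 6.34. Their mast cell means, 10.44 and 10.50 against 8.46 to 9.51, and macrophage means, 10.15 and 10.20 against 8.59 to 9.93, were highest too. The array of HDM back skin mouse 5 carried hepatocyte markers, with a list mean of 9.59 against 3.87 to 4.06 on the other 7 arrays of its group, and albumin (Alb) at 16.03 against 4.81 to 6.68. Results that rest on these 3 arrays are given with and without them.

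Of the 94 genes, 18 were above background on all 32 arrays and a further 12 on all 8 arrays of at least 1 group. Another 31 were above background on some arrays without filling a group, and 33 on no array. More P450 genes were lower than higher in HDM skin at both sites. In back skin 17 members (18.1%) were lower and 5 (5.32%) higher in HDM mice, against 8.56% lower and 6.18% higher (14.7% called) among all tested rows. In ear 19 members (20.2%) were lower and 3 (3.19%) higher, against 15.5% lower and 16.4% higher (31.9% called) among all tested rows. The counts for families, runs and lists given below are to be read beside these shares over all tested rows. The median difference of the members was 0.01 in back skin and -0.09 in ear, beside 0.01 and -0.02 over all rows. With array medians made equal, the median of all rows in back skin was 0.13, 63.6% of all its calls were higher in place of 41.9%, and the members called were 15 lower and 6 higher. Without HDM back skin mouse 5 the back skin counts were 16 lower and 4 higher. Without sham back skin mice 1 and 2 they were 13 lower and 3 higher.

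Cyp2b10, Cyp2b19, Cyp2b23, Cyp2d22, Cyp2f2, Cyp2j6, Cyp2j8, Cyp2j12, Cyp2w1 and Cyp4b1 were the 10 members lower in HDM skin at both sites. Cyp7b1 was the 1 member higher at both, and Cyp1b1 and Cyp4f17 were called in opposite directions. At neither site were 63 members called. Values of the HDM and sham arrays did not overlap for 7 called members (7.45%) in back skin and 7 (7.45%) in ear, against 4.02% and 7.62% of all tested rows.

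**Figure D1:**
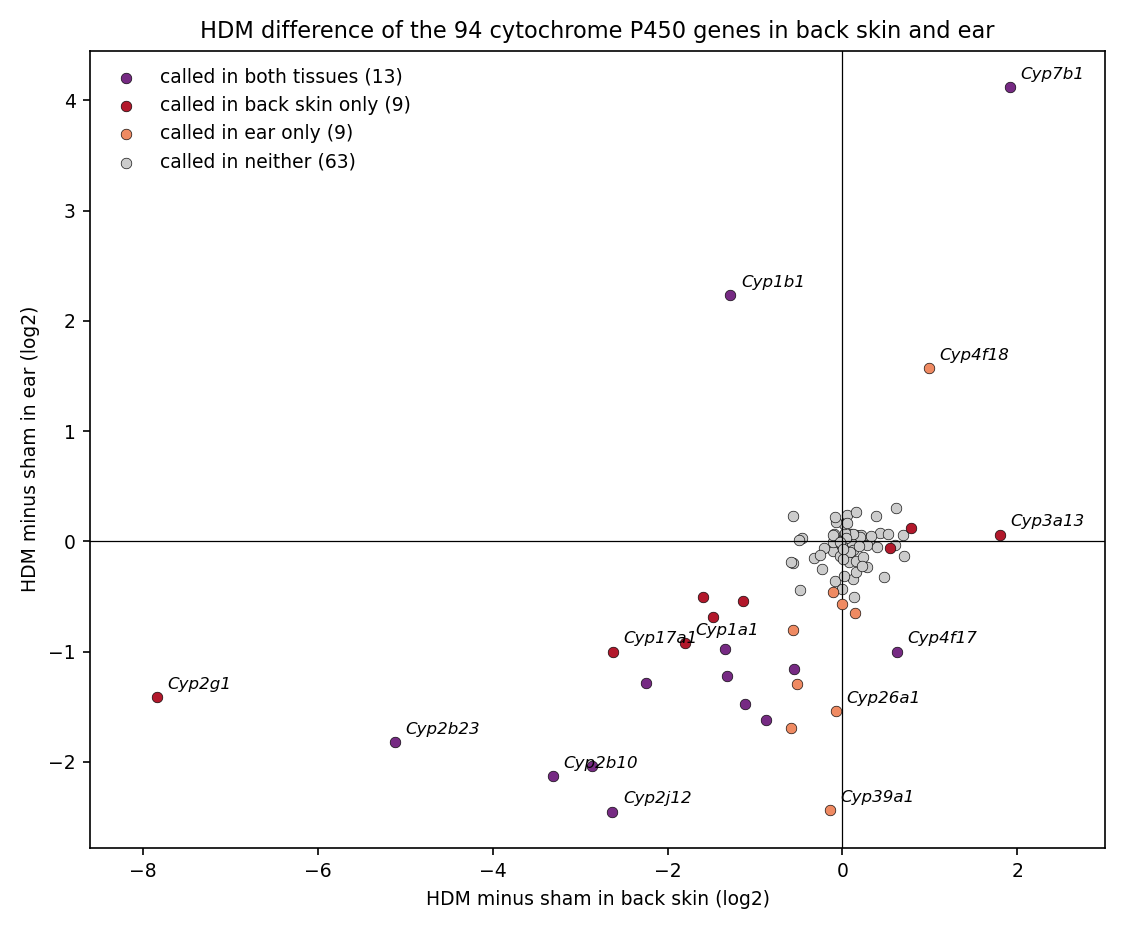
Difference between HDM and sham (log2) for the 94 P450 genes in back skin (horizontal axis) and ear (vertical axis), 1 point per gene, coloured by where the gene was called. Cyp2g1 lies farthest left at -7.84 in back skin and Cyp7b1 highest at 4.12 in ear.

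The Cyp2 family, the largest of the mouse P450 families and one that acts on drugs and on arachidonic acid, held most of the falls. Of 46 measured Cyp2 genes, Cyp2r1 is described with the vitamin D genes. Of the other 45, 11 (24.4%) were lower and 0 higher in HDM back skin, against 8.56% and 6.18% of all tested rows. At an unadjusted p under 0.05 in limma 12 were lower and 4 higher there. In ear 12 (26.7%) were lower and 0 higher, against 15.5% and 16.4% of all tested rows. At an unadjusted p under 0.05 in limma 13 were lower and 0 higher in ear. Only 13 of the 45 reached all 8 arrays of a group, and 16 were above background on no array.

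Cyp2g1, a P450 gene known from the olfactory mucosa, had the largest difference of any member. Its values lay between 3.89 and 8.83 on HDM back skin arrays (median 5.56), against 11.74 to 15.72 (median 14.10) on sham back skin arrays. The groups did not overlap, and 5 of the 8 HDM arrays were above background. The difference was -7.84 ± 0.66 (adjusted p = 6.01e-10), and -8.03 without HDM back skin mouse 5. In ear the values were 7.13 to 11.04 (median 9.67) in HDM mice and 9.60 to 11.80 (median 10.76) in sham mice, a difference of -1.41 ± 0.66 that did not pass the test (adjusted p = 0.107). Cyp2g1 was called lower in ear when only the ear groups were fitted. Mice 1, 2, 5 and 7 of HDM ear had 7.13 to 9.09, below every sham ear array, and the others had 10.25 to 11.04. In bulk punches fewer cells of a type and less RNA per cell cannot be told apart, for this gene and for those that follow.

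Cyp2b23 lay between 4.32 and 5.59 (median 4.77) on HDM back skin arrays, against 9.17 to 11.06 (median 9.84) on sham arrays. The HDM values sat at the background, with 2 of 8 arrays above it, and the groups were far apart: the difference was -5.12 ± 0.46 (adjusted p = 3.06e-09), or -4.98 once values below background were set to background. In HDM ear it lay between 6.72 and 11.00 (median 9.43), against 9.95 to 11.63 (median 11.02) in sham ear, a difference of -1.82 ± 0.46 (adjusted p = 0.0025) with overlapping groups. Mice 1, 2, 5 and 7 of HDM ear had 6.72 to 8.52, below every sham ear array, and the other 4 had 10.33 to 11.00. This split of HDM ear, used above for Cyp2g1 and again below, was chosen after the values were seen and is not in the labels.

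Cyp2b10, a classical target of the constitutive androstane receptor in liver, lay between 6.10 and 8.33 (median 6.97) in HDM back skin, against 9.62 to 11.13 (median 10.57) in sham back skin. The groups did not overlap and the difference was -3.31 ± 0.56 (adjusted p = 9.32e-05). In ear it lay between 7.38 and 12.06 (median 10.43) in HDM mice and 11.46 to 12.54 (median 12.12) in sham mice, a difference of -2.13 ± 0.56 (adjusted p = 0.00341). HDM ear again held a wide range, with 7.38 to 9.06 in mice 1, 2, 5 and 7 and 11.80 to 12.06 in the other 4.

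Cyp2f2, known for activating naphthalene in airway epithelium, lay between 6.6 and 8.78 (median 7.55) in HDM back skin, against 9.21 to 11.47 (median 10.56) in sham back skin. The difference was -2.86 ± 0.49 (adjusted p = 1.11e-04) without overlap. Its ear values lay between 9.11 and 13.01 (median 10.68) in HDM mice, against 12.23 to 13.78 (median 13.07) in sham mice, a difference of -2.04 ± 0.49 (adjusted p = 0.00152). Cyp2b19, an arachidonic acid epoxygenase of differentiated mouse keratinocytes, was lower by a smaller margin. It lay between 8.23 and 10.17 (median 9.37) in HDM back skin and 9.99 and 11.02 (median 10.38) in sham back skin, and the groups overlapped slightly. Its difference of -1.11 ± 0.34 (adjusted p = 0.0233) in back skin did not pass without HDM back skin mouse 5 (-0.96, adjusted p = 0.059) or without sham mice 1 and 2 (-1.05, adjusted p = 0.0563). In ear Cyp2b19 lay between 9.11 and 11.93 (median 11.14) in HDM mice, against 11.35 to 12.59 (median 12.32) in sham mice, a difference of -1.47 ± 0.34 (adjusted p = 9.34e-04).

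The Cyp2j genes encode epoxygenases and hydroxylases of arachidonic acid. Cyp2j12 lay between 3.77 and 5.67 (median 4.92) in HDM back skin, against 6.71 to 8.38 (median 7.45) in sham back skin. In ear it lay between 4.86 and 7.75 (median 6.25) in HDM mice and 7.77 and 9.11 (median 8.88) in sham mice. The groups did not overlap at either site, and the differences were -2.63 ± 0.35 in back skin (adjusted p = 2.24e-06) and -2.45 ± 0.35 in ear (adjusted p = 1.96e-06). In back skin 4 of 8 HDM arrays were above background, and the difference was -2.41 once values below background were set to it. Cyp2j6 differed by -1.32 ± 0.33 in back skin and -1.22 ± 0.33 in ear (adjusted p = 0.00605 and 0.00476), with group medians of 7.22 in HDM and 8.36 in sham back skin and 9.67 in HDM and 10.82 in sham ear. Cyp2j9 was below background on all sham back skin arrays and on 7 of 8 HDM back skin arrays. In ear Cyp2j9 lay between 3.75 and 6.10 (median 4.99) in HDM mice, against 6.18 to 7.91 (median 6.38) in sham mice, with no overlap and a difference of -1.69 ± 0.32 (adjusted p = 1.18e-04). There 4 of 8 HDM arrays were above background, and the difference was -1.42 with low values set to background.

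**Figure D2:**
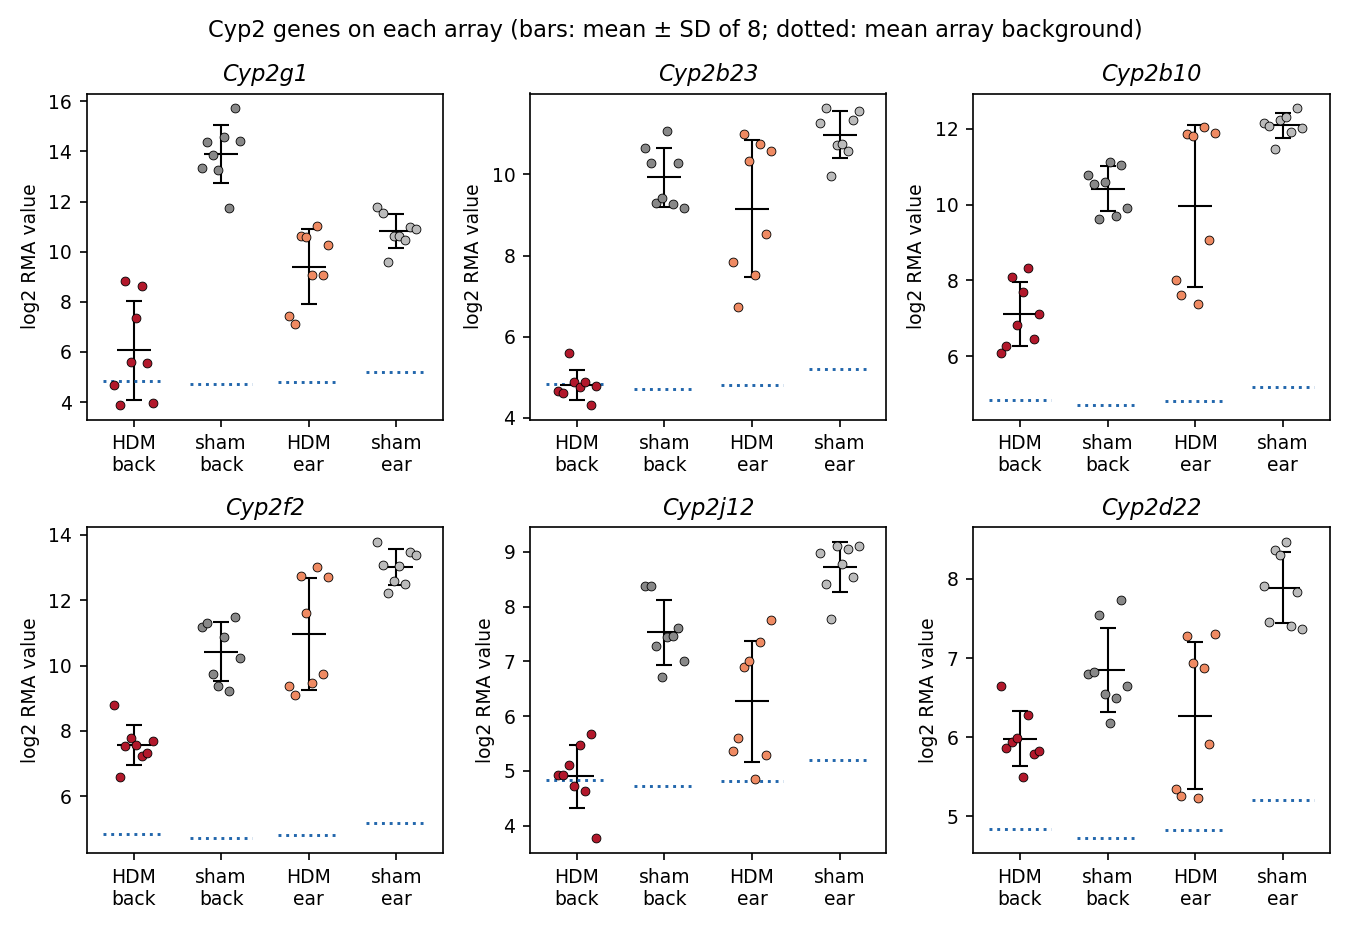
Log2 RMA value of 6 Cyp2 genes on each of the 32 arrays, with HDM left of sham for back skin and for ear. Points are arrays, bars are the mean ± SD of 8 arrays and dotted lines the mean background of the group, 4.84 in HDM back skin, 4.72 in sham back skin, 4.82 in HDM ear and 5.20 in sham ear. All 8 HDM back skin arrays of Cyp2g1, Cyp2b23, Cyp2b10, Cyp2f2 and Cyp2j12 lie below all 8 sham arrays, and HDM ear spreads widely.

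A few further Cyp2 genes outside the naming rule were singled out after their values were seen. Cyp2d22 was lower in HDM ear, between 5.23 and 7.31 (median 6.39), against 7.37 to 8.47 (median 7.87) in sham ear, without overlap (-1.62 ± 0.29, adjusted p = 4.86e-05). Its back skin difference of -0.87 ± 0.29 (adjusted p = 0.0391) did not pass without HDM back skin mouse 5 (adjusted p = 0.0773) or without sham mice 1 and 2 (adjusted p = 0.0667). Cyp2j8 differed by -2.25 ± 0.35 in back skin and -1.28 ± 0.35 in ear (adjusted p = 2.98e-05 and 0.00504). Cyp2u1, a fatty acid hydroxylase gene, was lower in HDM back skin (-1.14 ± 0.27, adjusted p = 0.00383) and not called in ear (-0.54 ± 0.27). Cyp2w1 was called lower at both sites but was above background on 0 HDM arrays and 1 sham array in back skin, and on 0 HDM and 2 sham arrays in ear. In back skin its difference of -0.55 ± 0.18 (adjusted p = 0.0382) became 0.12 once values below background were set to background. It did not pass there without HDM back skin mouse 5 (adjusted p = 0.0746) or without sham mice 1 and 2 (adjusted p = 0.128). In ear its difference of -1.16 ± 0.18 (adjusted p = 9.83e-06) became -0.44 with low values set to background, where the background itself averaged 4.82 in HDM and 5.20 in sham ear. Not every Cyp2 gene with signal moved: Cyp2s1, a P450 of epithelia outside the liver, had medians of 10.64 in HDM and 10.46 in sham back skin and of 8.36 in HDM and 8.92 in sham ear, with differences of 0.12 ± 0.29 and -0.34 ± 0.29 (adjusted p = 0.85 and 0.427).

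Some marker lists of skin structures moved with the Cyp2 falls, and others did not. In HDM back skin 0 of 14 measured hair follicle markers were called (median difference 0.75). Of 6 measured fibroblast markers (7 listed) 1 was lower and 0 higher there (median -0.17). Of 7 basal epidermis markers 2 were lower and 1 higher there (median -0.01). Of 12 measured sebaceous gland markers (13 listed) 9 were lower and 1 higher in HDM back skin, with list means of 9.32 to 10.86 on HDM arrays, against 11.60 to 12.76 on sham arrays. In ear 4 were lower and 1 higher, with 11.35 to 12.93 on HDM arrays, against 12.56 to 13.32 on sham arrays. Plin5 was the 1 sebaceous marker below background on every array. Of 12 measured adipocyte markers (14 listed) 9 were lower in HDM back skin and 12 in HDM ear, with 0 higher at either site. Adipocyte list means were 9.95 to 10.75 in HDM and 11.12 to 12.07 in sham back skin, and 7.46 to 8.83 in HDM and 9.46 to 9.85 in sham ear. Of 10 measured epidermal differentiation markers (11 listed) 5 were lower in HDM back skin, where list means were 12.87 to 14.57, against 15.14 to 16.25 in sham. In ear 6 of these were lower and 1 higher, with list means of 13.38 to 16.05 in HDM mice, against 16.32 to 16.84 in sham mice. HDM ear mice 1, 2, 5 and 7, the arrays with the lowest Cyp2b10, had 13.38 to 14.51 on this list and the other 4 had 15.89 to 16.05. Basal epidermis means, over 7 genes of which 3 were lower and 1 higher in HDM ear, were 15.08 to 15.61 on the same 4 arrays and 16.26 to 16.46 on the other 4, against 16.40 to 16.77 in sham ear. All 12 skeletal muscle markers were lower in HDM ear (median -2.85), with list means of 8.38 to 9.64 on those 4 arrays and 9.85 to 10.79 on the other 4, against 11.44 to 13.52 in sham ear. In back skin their median difference was -0.18, with list means of 12.36 to 13.79 in HDM and 10.56 to 15.62 in sham mice. With the sebaceous and adipocyte list means as covariates, Cyp1b1 was the 1 of the 17 members still called lower in back skin (-2.65 ± 0.41, adjusted p = 0.00157), and 0 of the 19 were called in ear by limma, where 2 members were lower at an unadjusted p under 0.05. Calls over all tested rows fell alike, to 0.766% in place of 14.7% in back skin and to 0.171% in place of 31.9% in ear, so the loss is not particular to the P450 genes. Both list means separated HDM from sham back skin without overlap, so the share of the Cyp2 falls that goes with these markers and the share that goes with the agent cannot be told apart. In ear the sebaceous means overlapped but the adipocyte means did not, so the agent and the adipocyte list cannot be told apart there either.

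In RefSeq gene order 93 of the 94 members could be placed among protein-coding genes, and many form runs of neighbours. In the run of 13 members on chromosome 7 from Cyp2s1 to Cyp2t4, 6 were above background on all arrays of a group. Of the 13, 5 were lower in HDM back skin (Cyp2b10, Cyp2b23, Cyp2b19, Cyp2g1 and Cyp2f2) and 5 in HDM ear (Cyp2b10, Cyp2b13, Cyp2b23, Cyp2b19 and Cyp2f2), although Cyp2b13 was below background on all 16 ear arrays. There were 0 higher and, at an unadjusted p under 0.05, 1 higher in back skin and 0 in ear. Cyp2s1 at the end of this run was not called at either site. Over all tested rows 8.56% were lower in back skin and 15.5% in ear. In the run of 7 Cyp2j genes on chromosome 4, 4 had signal on all arrays of a group, 3 of these (Cyp2j12, Cyp2j8 and Cyp2j6) were lower in back skin and all 4, Cyp2j9 included, in ear. The run of 13 Cyp2c genes on chromosome 19, which encode mostly liver enzymes, had no member on all 8 arrays of a group and 0 calls in any of the 4 comparisons, with 2 higher at an unadjusted p under 0.05 in back skin and 0 elsewhere. Neighbours of 1 subfamily are similar in sequence, so probes may cross-react within a run, and this was not tested. No 2 members had identical values, but rows that share part of their signal need not be identical.

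**Figure D3:**
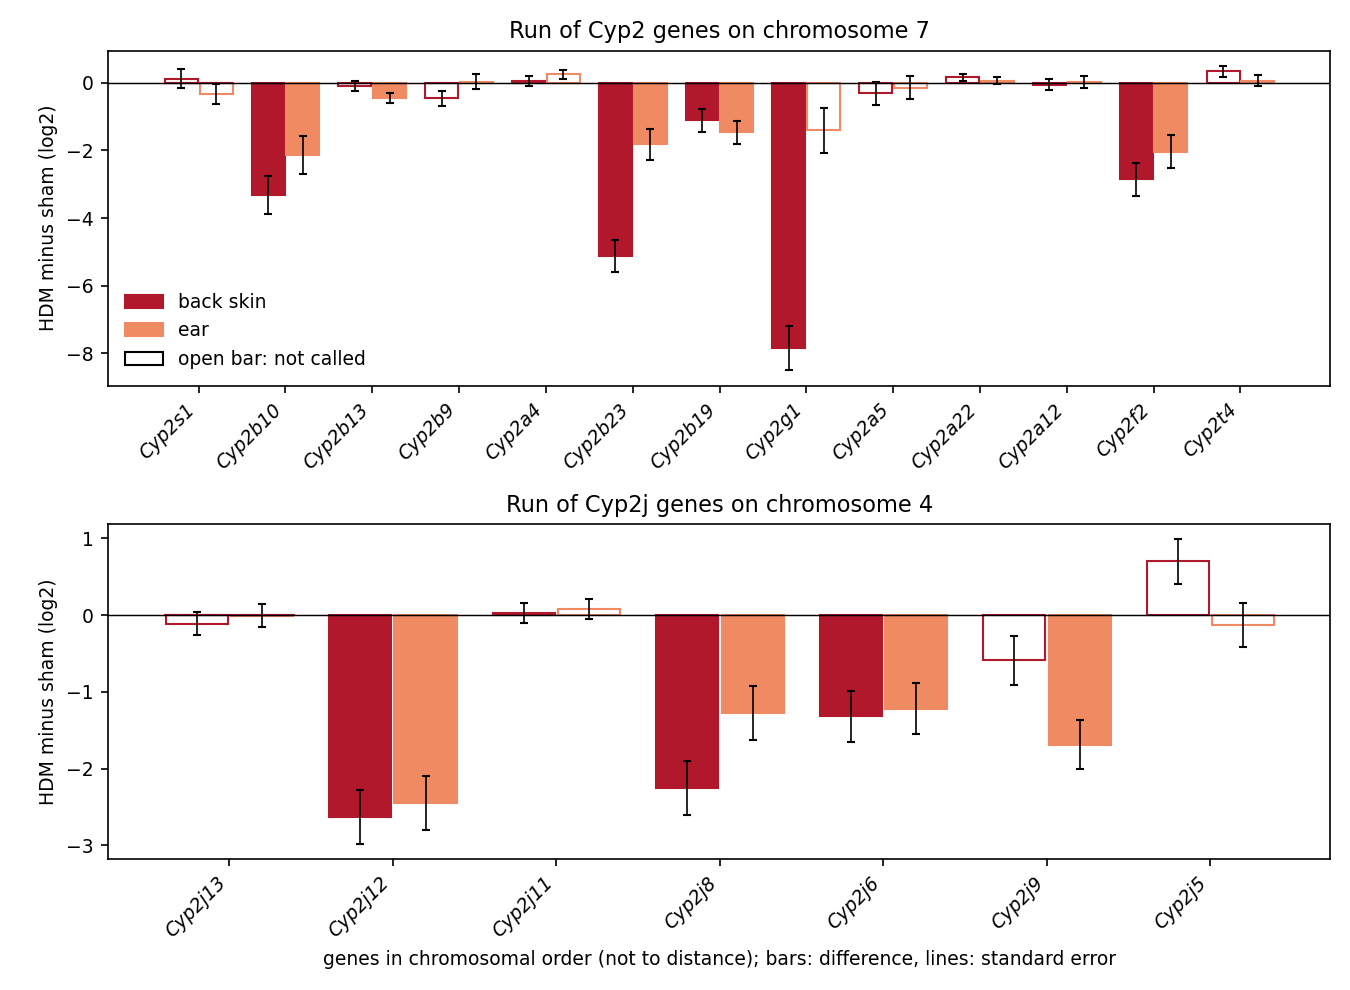
Difference between HDM and sham (log2, bars, lines are the standard error) in back skin and ear for the run of 13 Cyp2 genes on chromosome 7 and the run of 7 Cyp2j genes on chromosome 4, in chromosomal order and not to distance. Filled bars passed the test and open bars did not, with Cyp2g1 the longest at -7.84 in back skin.

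The Cyp1 genes are the best known targets of the aryl hydrocarbon receptor, a sensor of planar aromatic compounds that binds DNA at the core GCGTG together with its partner Arnt. Cyp1a1 encodes the enzyme most strongly induced by this receptor and Cyp1b1 one that also acts on oestrogens and retinoids. The 250 bases before the start of each gene are shown here because both hold the core, 5′ to 3′ on the strand of the gene in RefSeq GRCm38.p6, with the core or its reverse complement in capitals. They are joined by Cyp2b10 and Cyp2j12, which were lower at both sites and hold the core too. Of the 10 members lower at both sites 9 have a promoter in the table, and 3 of these, Cyp2w1 being the other, hold the core. The windows are chr9:57697363-57697612 (plus strand) for Cyp1a1, chr17:79715062-79715311 (minus strand) for Cyp1b1, chr7:25897408-25897657 (plus strand) for Cyp2b10 and chr4:96141153-96141402 (minus strand) for Cyp2j12.
Cyp1a1: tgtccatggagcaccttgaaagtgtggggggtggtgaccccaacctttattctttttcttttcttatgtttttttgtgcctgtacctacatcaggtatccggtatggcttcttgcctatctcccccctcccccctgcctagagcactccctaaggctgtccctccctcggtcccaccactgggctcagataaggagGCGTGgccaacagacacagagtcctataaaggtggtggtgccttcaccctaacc
Cyp1b1: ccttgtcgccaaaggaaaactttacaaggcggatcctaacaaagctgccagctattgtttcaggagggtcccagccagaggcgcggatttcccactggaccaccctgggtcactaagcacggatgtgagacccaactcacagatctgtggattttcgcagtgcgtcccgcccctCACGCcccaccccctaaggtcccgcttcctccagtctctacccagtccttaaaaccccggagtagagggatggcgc
Cyp2b10: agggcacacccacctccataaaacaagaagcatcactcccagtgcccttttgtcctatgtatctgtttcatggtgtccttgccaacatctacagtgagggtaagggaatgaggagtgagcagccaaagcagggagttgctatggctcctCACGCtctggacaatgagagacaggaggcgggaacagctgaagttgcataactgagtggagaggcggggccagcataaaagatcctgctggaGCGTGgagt
Cyp2j12: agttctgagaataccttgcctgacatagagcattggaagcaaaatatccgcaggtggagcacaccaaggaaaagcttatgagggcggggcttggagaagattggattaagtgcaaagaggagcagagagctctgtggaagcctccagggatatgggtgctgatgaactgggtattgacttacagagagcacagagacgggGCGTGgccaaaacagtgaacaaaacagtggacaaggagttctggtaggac
The core lies at -54 to -50 in Cyp1a1, at -76 to -72 in Cyp1b1, at -101 to -97 and at -9 to -5 in Cyp2b10, and at -50 to -46 in Cyp2j12, counted back from the base before the start as -1. GCGTG is short: on both strands of windows from 250 bases before to 50 after the start it occurs in 32.4% of 32851 mouse promoters, and in 15 of the 79 promoters of the 71 members that have one in the table. A match describes the sequence and does not show that the receptor binds there.

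Of the 3 Cyp1 genes Cyp1a2 was above background on no array. Cyp1a1 lay between 3.69 and 6.23 (median 4.38) in HDM back skin, against 5.22 to 6.84 (median 6.49) in sham back skin. The groups overlapped, and 2 of 8 HDM arrays and 8 of 8 sham arrays were above background. The difference was -1.80 ± 0.38 (adjusted p = 0.0013), or -1.31 once values below background were set to it. In ear Cyp1a1 lay between 4.96 and 7.03 (median 5.86) in HDM mice and 5.27 and 7.98 (median 6.79) in sham mice, a difference of -0.92 ± 0.38 that did not pass (adjusted p = 0.0651).

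Cyp1b1 moved in opposite directions at the sites. In back skin it lay between 9.62 and 10.50 (median 10.04) in HDM mice, against 10.68 to 11.70 (median 11.50) in sham mice, a difference of -1.28 ± 0.26 (adjusted p = 8.72e-04). Its ear values lay between 9.54 and 11.53 (median 10.60) in HDM mice, against 7.62 to 9.01 (median 8.24) in sham mice, a rise of 2.23 ± 0.26 (adjusted p = 1.32e-07). The groups overlapped at neither site. In HDM ear, mice 1, 2, 5 and 7 had 11.05 to 11.53 and the other 4 had 9.54 to 10.15. The difference of the HDM effects, ear minus back skin, was 3.52 ± 0.37 (adjusted p = 2.82e-07).

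The pathway list of nuclear receptors and aryl hydrocarbon receptor genes had 22 of 26 genes measured, of which 2 were higher and 5 lower in HDM back skin and 3 higher and 8 lower in HDM ear (list medians -0.37 and -0.49, beside 0.01 and -0.02 over all rows). The genes named from this and the later lists were chosen after their values were seen. Ahr, the receptor itself, averaged 11.07 in HDM and 11.62 in sham back skin and 11.65 in HDM and 12.23 in sham ear, with differences that did not pass (adjusted p = 0.173 and 0.0919). Ahrr, a repressor of the pathway and one of its targets, differed by -0.40 ± 0.22 and -0.14 ± 0.22 (adjusted p = 0.254 and 0.70). Nqo1, a quinone reductase gene that answers to this receptor and to Nrf2, rose by 1.10 ± 0.30 in back skin and by 1.96 ± 0.30 in ear (adjusted p = 0.0101 and 5.31e-06). Arnt differed by -0.30 ± 0.15 in back skin and was lower in ear by -0.47 ± 0.15 (adjusted p = 0.197 and 0.0158). Tiparp, also on this list, differed by 0.04 ± 0.20 in back skin and rose by 0.74 ± 0.20 in ear (adjusted p = 0.927 and 0.00395). The receptors that drive many Cyp2b and Cyp3a genes in liver, Nr1i2 and Nr1i3, were above background on 1 array between them, in HDM ear. Ppara, a fatty acid receptor gene, was lower at both sites, with differences of -1.64 ± 0.39 in back skin and -2.17 ± 0.39 in ear (adjusted p = 0.00389 and 5.60e-05). Pparg, a receptor gene of sebocytes and adipocytes, was lower too (-1.73 ± 0.36 and -1.15 ± 0.36, adjusted p = 0.00105 and 0.0128).

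The Cyp26 enzymes clear retinoic acid, and Cyp26a1 is itself a classical target of retinoic acid receptors. Of the 3 genes Cyp26c1 was above background on no array. Cyp26b1 lay between 9.05 and 9.99 (median 9.56) in HDM back skin, against 9.59 to 12.76 (median 11.10) in sham back skin, with overlap. The difference was -1.59 ± 0.33 (adjusted p = 0.00103). Sham mice 1 and 2 held the 2 highest values, 12.72 and 12.76, and without them the difference was -1.04 (adjusted p = 0.00577). In ear Cyp26b1 lay between 11.09 and 12.20 (median 11.68) in HDM mice and 11.79 and 12.84 (median 12.11) in sham mice, a difference of -0.50 ± 0.33 (adjusted p = 0.275). It was called lower in ear when only the ear groups were fitted.

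Cyp26a1 was detected in ear alone: it was above background on 3 of 8 HDM and 7 of 8 sham ear arrays and on 0 of 16 back skin arrays. In ear it lay between 3.63 and 6.94 (median 4.82) in HDM mice, against 5.24 to 7.91 (median 6.96) in sham mice. The difference was -1.54 ± 0.40 (adjusted p = 0.00283), or -1.29 with low values set to background, and the groups overlapped. Its upstream window, chr19:37697558-37697807 on the plus strand of GRCm38.p6, is shown because it holds 2 direct copies of AGTTCA with 5 bases between them, the form of a retinoic acid response element, with the match on the minus strand in capitals.
Cyp26a1: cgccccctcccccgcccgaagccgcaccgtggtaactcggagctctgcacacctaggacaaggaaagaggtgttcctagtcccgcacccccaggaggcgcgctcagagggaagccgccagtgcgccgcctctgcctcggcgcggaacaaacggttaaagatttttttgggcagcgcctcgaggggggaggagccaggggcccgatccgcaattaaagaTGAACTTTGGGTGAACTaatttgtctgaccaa
The match lies at -32 to -16. This arrangement occurred in 8 of the 32851 promoters (0.0244%) searched on both strands, and Cyp26a1 was the 1 member among them. The same arrangement of AGGTCA occurred in 3 promoters, none of a member.

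Other retinoid genes moved in both directions. Of 21 measured genes of retinoid metabolism (24 listed) 6 were higher and 8 lower in HDM back skin and 5 higher and 8 lower in HDM ear (list medians -0.76 and 0.03). Aldh1a3, which makes retinoic acid, averaged 11.89 in HDM and 7.80 in sham back skin, a rise of 4.08 ± 0.21 (adjusted p = 7.37e-15), and 8.45 in HDM and 6.78 in sham ear, a rise of 1.68 ± 0.21 (adjusted p = 3.75e-07). Crabp2, which carries retinoic acid to its receptors, rose by 2.56 ± 0.17 in back skin (adjusted p = 6.12e-12) and differed by -0.19 ± 0.17 in ear (adjusted p = 0.451). Dhrs9, a retinol dehydrogenase gene, rose by 5.06 ± 0.33 in ear (adjusted p = 1.15e-12) and differed by 0.60 ± 0.33 in back skin (adjusted p = 0.254). Dhrs3, which turns retinal back into retinol, was lower at both sites (-1.0 ± 0.24 in back skin and -1.62 ± 0.24 in ear, adjusted p = 0.00327 and 3.00e-06).

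**Figure D4:**
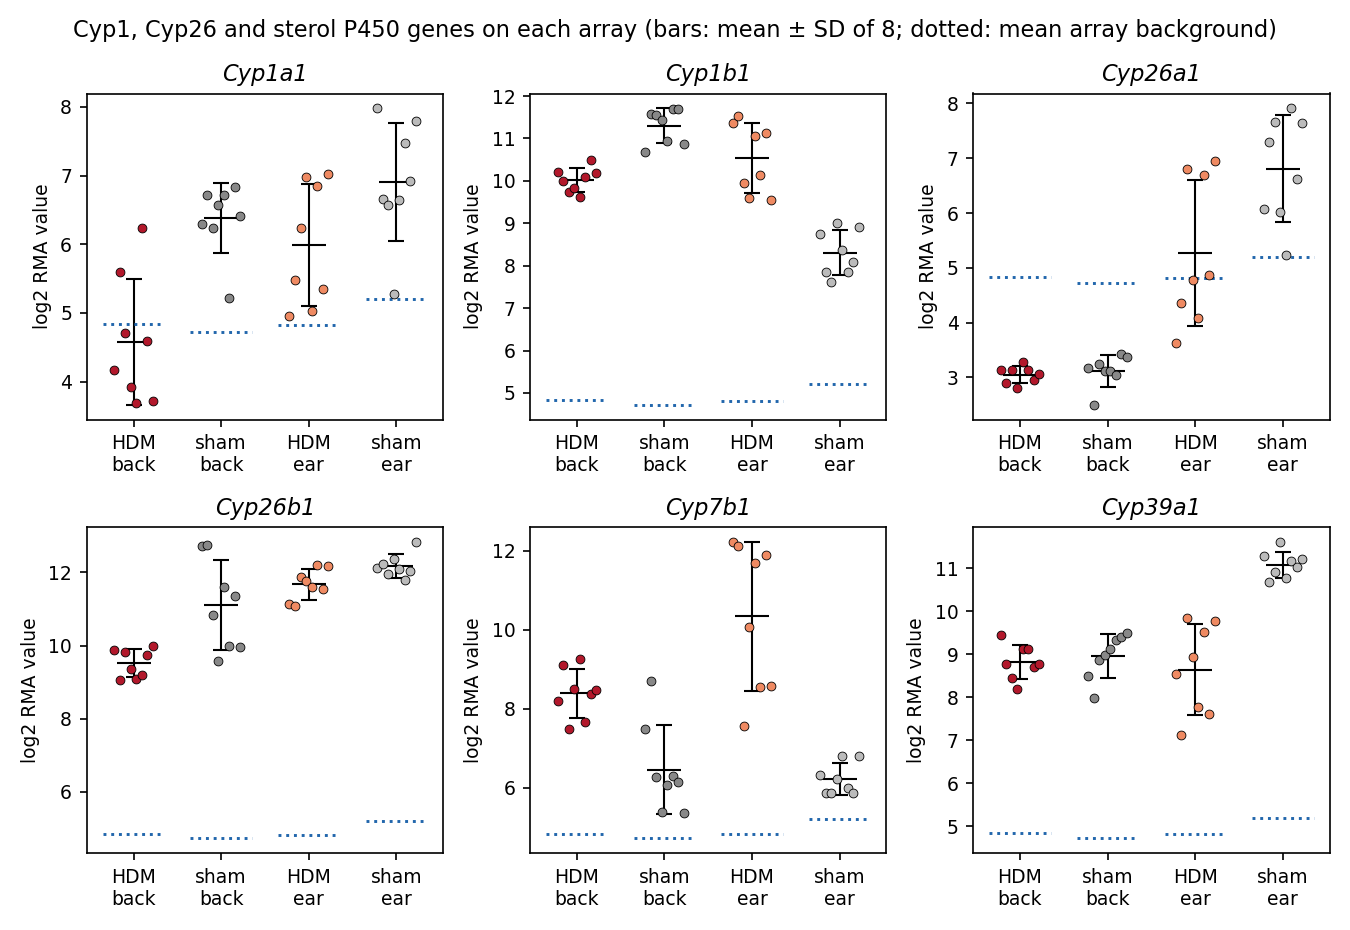
Log2 RMA value of Cyp1a1, Cyp1b1, Cyp26a1, Cyp26b1, Cyp7b1 and Cyp39a1 on each of the 32 arrays, with HDM left of sham for back skin and for ear. Points are arrays, bars the mean ± SD of 8 arrays and dotted lines the mean background of the group. Cyp1b1 lies below sham in HDM back skin and above sham in HDM ear, and Cyp39a1 separates HDM from sham in ear alone.

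Of 19 Cyp4 genes, which encode fatty acid hydroxylases, 7 were above background on all arrays of a group and 8 on no array. In HDM back skin 2 were higher and 2 lower (10.5% each), and in HDM ear 1 was higher (5.26%) and 2 lower (10.5%). Among all tested rows 6.18% were higher and 8.56% lower in back skin, and 16.4% and 15.5% in ear. Cyp4b1 was lower at both sites: it lay between 8.78 and 9.87 (median 9.59) in HDM back skin, against 9.86 to 11.83 (median 10.89) in sham back skin, a difference of -1.34 ± 0.37 (adjusted p = 0.0121). Sham mice 1 and 2 held its 2 highest values there, and without them it did not pass (-1.0, adjusted p = 0.0754). In ear Cyp4b1 lay between 8.09 and 10.93 (median 9.72) in HDM mice and 9.93 and 11.37 (median 10.70) in sham mice, a difference of -0.98 ± 0.37 (adjusted p = 0.0398) with wide overlap.

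Cyp4f39, which hydroxylates the very long fatty acids of epidermal acylceramides, kept a high signal in all groups. It lay between 11.64 and 12.17 (median 11.92) in HDM back skin and 11.75 and 13.17 (median 12.28) in sham back skin, and between 12.60 and 13.74 (median 12.90) in HDM ear and 12.45 and 14.27 (median 13.50) in sham ear. Neither difference passed, -0.48 ± 0.20 in back skin (adjusted p = 0.115) and -0.44 ± 0.20 in ear (adjusted p = 0.0982). Of 14 measured acylceramide genes (16 listed) 6 were higher and 2 lower in HDM back skin and 9 higher and 1 lower in HDM ear (list medians 0.40 and 0.69). Cers3, the ceramide synthase of this route, rose by 1.67 ± 0.37 in back skin and by 2.57 ± 0.37 in ear (adjusted p = 0.00175 and 2.31e-06). Slc27a4, a fatty acid transporter gene, was lower (-1.56 ± 0.32 and -1.55 ± 0.32, adjusted p = 8.29e-04 and 2.63e-04).

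Cyp4f18 encodes a hydroxylase of leukotriene B in mouse neutrophils. Its ear values lay between 4.63 and 8.06 (median 5.80) in HDM mice, above background on 5 of 8 arrays, against 4.08 to 5.05 (median 4.79) in sham mice, below background on all 8. It was at least 2.03-fold higher in HDM ear (adjusted p = 0.00304), and the groups overlapped. Mice 1, 2, 5 and 7 of HDM ear had 6.58 to 8.06 and the other 4 had 4.63 to 5.01. The neutrophil marker list, with 7 of 8 genes measured, moved with it: its means were 12.28 to 13.20 on those 4 arrays and 8.43 to 9.70 on the other 4 of HDM ear, against 4.10 to 5.52 in sham ear. Of these 7 markers 6 were higher in HDM ear, Camp was below background in every group, and the list's part in the Cyp4f18 result was not tested. In back skin Cyp4f18 lay between 5.07 and 6.52 (median 5.70) in HDM mice and 4.31 and 5.15 (median 4.74) in sham mice, a difference of 0.99 ± 0.41 (adjusted p = 0.101). It was above background on 8 of 8 HDM and 5 of 8 sham back skin arrays, and was called higher when only the back skin groups were fitted. The neutrophil list rose in back skin too, and its part there was not tested. Of its 7 markers 5 were higher, with list means of 9.59 to 10.40 in HDM and 5.19 to 7.88 in sham back skin.

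Cyp4f17 was called in opposite directions. It lay between 5.28 and 6.70 (median 6.32) in HDM back skin, against 5.25 to 6.06 (median 5.45) in sham back skin, and between 4.38 and 5.87 (median 5.18) in HDM ear, against 5.69 to 6.70 (median 6.04) in sham ear. The differences were 0.62 ± 0.22 in back skin (adjusted p = 0.0488) and -1.0 ± 0.22 in ear (adjusted p = 4.56e-04), and their difference was -1.62 ± 0.31 (adjusted p = 8.03e-04). These values lie close to the background, and the back skin call was lost with an intensity trend and robust variances in eBayes (adjusted p = 0.0616). Cyp4f15, also called higher in back skin (0.54 ± 0.17, adjusted p = 0.0254), was below background on all 32 arrays and did not pass without HDM back skin mouse 5 (adjusted p = 0.0692). Cyp4f37, outside the naming rule, was lower in HDM back skin (-1.48 ± 0.33, adjusted p = 0.00215).

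The eicosanoid and epoxide list, enzymes that make or remove the lipids on which Cyp2 and Cyp4 members act, had 17 of 18 genes measured, with 2 higher and 2 lower in HDM back skin and 8 higher and 6 lower in HDM ear (list medians -0.03 and 0.78). Ephx1, the microsomal epoxide hydrolase gene, was lower at both sites (-0.87 ± 0.23 in back skin and -0.96 ± 0.23 in ear, adjusted p = 0.00844 and 0.00131). Ephx3, an epidermal epoxide hydrolase gene, rose by 1.64 ± 0.23 in ear (adjusted p = 1.63e-06) and differed by 0.39 ± 0.23 in back skin (adjusted p = 0.274). Ptges, which makes prostaglandin E, rose by 2.84 ± 0.40 in ear (adjusted p = 1.83e-06) and differed by 1.03 ± 0.40 in back skin (adjusted p = 0.078).

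Among the 9 Cyp3a genes, drug-metabolising enzymes with most members in liver, 1 was above background on all arrays of a group. This was Cyp3a13, which lay between 6.83 and 8.59 (median 8.06) in HDM back skin, against 5.19 to 6.85 (median 6.10) in sham back skin. The ranges met at their ends, and the rise was 1.80 ± 0.34 (adjusted p = 3.41e-04). In ear it lay between 6.11 and 8.01 (median 6.52) in HDM mice and 5.23 and 7.94 (median 6.76) in sham mice, a difference of 0.06 ± 0.34 (adjusted p = 0.922). The effects differed between the sites by -1.74 ± 0.48 (ear minus back skin, adjusted p = 0.0172). Cyp3a57, outside the naming rule, was above background on 2 of 8 HDM and 7 of 8 sham ear arrays, with a difference of -1.29 ± 0.23 in ear (adjusted p = 6.32e-05), or -0.79 with low values set to background.

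The sterol and bile acid genes held the largest rise. Cyp7b1, which hydroxylates oxysterols and dehydroepiandrosterone, lay between 7.57 and 12.23 (median 10.89) in HDM ear, against 5.86 to 6.81 (median 6.11) in sham ear. The groups did not overlap and the rise was 4.12 ± 0.55 (adjusted p = 7.96e-07). Mice 1, 2, 5 and 7 of HDM ear were highest at 11.70 to 12.23, and the other 4 had 7.57 to 10.08. In back skin it lay between 7.49 and 9.25 (median 8.43) in HDM mice, against 5.35 to 8.71 (median 6.2) in sham mice, a rise of 1.92 ± 0.55 (adjusted p = 0.0143). Sham mice 1 and 2 held the highest sham values, 7.48 and 8.71, and without them the rise was 2.47 (adjusted p = 0.00189). The difference between the sites, 2.19 ± 0.77, did not pass (adjusted p = 0.0653). The macrophage marker list, with 9 of 10 genes measured, was higher in HDM ear for 9 of 9 and in HDM back skin for 1, with list means of 9.69 to 12.52 in HDM and 8.05 to 8.57 in sham ear and of 9.69 to 10.24 in HDM and 8.59 to 10.20 in sham back skin. Fcgr1 was the 1 macrophage marker below background throughout a group, sham ear, and the list's part in the Cyp7b1 result was not tested.

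Cyp39a1, another oxysterol hydroxylase, was lower in HDM ear alone. It lay between 7.12 and 9.85 (median 8.73) in HDM ear, against 10.67 to 11.61 (median 11.10) in sham ear, without overlap, and the difference was -2.44 ± 0.30 (adjusted p = 2.89e-07). In back skin it lay between 8.20 and 9.44 (median 8.76) in HDM mice and 7.98 and 9.48 (median 9.06) in sham mice, a difference of -0.14 ± 0.30 (adjusted p = 0.823). The effects differed between sites by -2.30 ± 0.43 (ear minus back skin, adjusted p = 7.20e-04). Cyp27a1, the mitochondrial sterol side-chain hydroxylase gene, lay between 5.44 and 6.36 (median 5.92) in HDM ear, against 5.76 to 7.39 (median 6.56) in sham ear, a difference of -0.80 ± 0.20 (adjusted p = 0.00261). Its back skin difference of -0.57 ± 0.20 did not pass (adjusted p = 0.0558). Cyp46a1, the cholesterol hydroxylase of neurons, was called lower in ear with every array below background, so no fold is given.

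Of 5 steroid hormone genes, Cyp11b1 and Cyp11b2 were above background on no array. Cyp17a1, the hydroxylase and lyase of androgen synthesis, lay between 6.27 and 8.54 (median 6.64) in HDM back skin, against 8.12 to 11.46 (median 9.14) in sham back skin. The groups overlapped by 1 HDM array, mouse 6, and the difference was -2.62 ± 0.42 (adjusted p = 3.92e-05), or -2.12 without sham mice 1 and 2 (adjusted p = 3.44e-04). Its ear values lay between 6.34 and 9.52 (median 7.92) in HDM mice and 8.39 and 9.80 (median 8.98) in sham mice, a difference of -1.0 ± 0.42 (adjusted p = 0.0696) that passed in the fit without sham back skin mice 1 and 2 (adjusted p = 0.0351). Cyp11a1, the side-chain cleavage enzyme that starts steroid synthesis, had differences of -0.23 ± 0.26 and -0.25 ± 0.26 (adjusted p = 0.627 and 0.527), with medians of 6.57 in HDM and 6.94 in sham back skin and 6.99 in HDM and 7.48 in sham ear. Cyp21a1 was called higher in HDM back skin (0.78 ± 0.21, adjusted p = 0.00929), above background on 3 HDM arrays and 1 sham array, but not without sham mice 1 and 2 (0.56, adjusted p = 0.0658). Of 15 measured genes of steroid synthesis (19 listed) 1 was higher and 3 lower in back skin and 3 higher and 4 lower in ear, with list medians of -0.18 and 0.09. Hsd3b6, a dehydrogenase isomerase gene of the same route, was lower at both (-4.49 ± 0.60 in back skin and -2.50 ± 0.60 in ear, adjusted p = 2.76e-06 and 0.00143).

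The vitamin D genes showed no call. Cyp2r1, which makes the circulating form, had medians of 4.58 in HDM and 5.62 in sham back skin and of 5.04 in HDM and 5.20 in sham ear, with differences of -0.59 ± 0.36 and -0.19 ± 0.36 (adjusted p = 0.303 and 0.755). Cyp27b1, which activates vitamin D, and Cyp24a1, which inactivates it, were below background on all 32 arrays. Among the 3 genes 0 were called by limma at either site, with 0 in back skin and 1 in ear at an unadjusted p under 0.05. Vdr, the receptor, averaged 12.65 in HDM and 12.82 in sham back skin and 10.66 in HDM and 10.50 in sham ear (adjusted p = 0.667 and 0.635). Cyp20a1, an orphan P450 gene outside the naming rule, differed by -0.56 ± 0.20 in back skin (adjusted p = 0.0512). It passed without HDM back skin mouse 5 (-0.68, adjusted p = 0.0164) but not without sham mice 1 and 2 (-0.39, adjusted p = 0.223).

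Partners of the P450 enzymes were followed as well, with 10 of 12 listed redox and haem genes measured, of which 1 was higher and 4 lower in HDM back skin and 4 higher and 3 lower in HDM ear (list medians -0.22 and -0.07). Alas1, the rate-limiting enzyme of haem synthesis, averaged 11.13 in HDM and 9.87 in sham back skin and 10.32 in HDM and 9.17 in sham ear, rises of 1.26 ± 0.16 and 1.14 ± 0.16 (adjusted p = 1.65e-06 and 2.16e-06). Hmox1, which degrades haem, rose by 2.20 ± 0.27 in ear (adjusted p = 2.12e-07) and differed by 0.54 ± 0.27 in back skin (adjusted p = 0.189). Pgrmc1, a haem-binding partner of P450 enzymes, was lower at both sites (-0.77 ± 0.18 in back skin and -0.50 ± 0.18 in ear, adjusted p = 0.00359 and 0.0351). Fdx1, the redoxin that feeds mitochondrial P450 enzymes, was lower as well (-0.46 ± 0.15 and -0.49 ± 0.15, adjusted p = 0.0274 and 0.00828).

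For the difference of the HDM effect between sites, 3 members were higher in ear and 3 lower, 3.19% each, against 6.77% and 3.37% of all tested rows (10.1% called). Cyp2g1 (6.43 ± 0.94, adjusted p = 5.19e-05), Cyp1b1 and Cyp2b23 (3.30 ± 0.66, adjusted p = 0.0014) were those with the higher ear effect. Cyp39a1, Cyp3a13 and Cyp4f17 were those with the lower ear effect. These 6 were called without HDM back skin mouse 5 and without sham back skin mice 1 and 2 as well. With the sebaceous and adipocyte list means as covariates Cyp2g1 had 3.82 and Cyp2b23 had 2.13, Cyp3a13 lost its call, and Cyp2j9 gained one (-2.27). For Cyp2b10, Cyp2f2 and Cyp2j12 the difference between sites did not pass (1.18 ± 0.80, 0.82 ± 0.70 and 0.18 ± 0.49).

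In sham mice 17 members (18.1%) were higher and 7 (7.45%) lower in ear than in back skin, against 15.6% and 14.1% of all tested rows (29.7% called), and 12 members (12.8%) were called without overlap, against 8.52% of all tested rows. Cyp26a1 was at least 4.26-fold higher in sham ear (adjusted p = 9.01e-09), and Cyp2j9 at least 3.75-fold (adjusted p = 2.57e-07). Cyp2f2 was higher by 2.58 ± 0.49 and Cyp2j6 by 2.28 ± 0.33 in sham ear (adjusted p = 1.11e-04 and 2.41e-06), both without overlap. In the other direction, Cyp2e1, the ethanol-oxidising P450 of liver, was below background on all 8 sham ear arrays and between 5.81 and 10.67 in sham back skin, at least 7.62-fold lower in ear (adjusted p = 7.94e-08). This bound uses sham back skin mice 1 and 2, at 9.19 and 10.67. Without them the difference was -4.02 in place of -4.62 (adjusted p = 5.98e-07), and no bound was computed. Cyp2g1, at 9.60 to 11.80 in sham ear and 11.74 to 15.72 in sham back skin, was lower in ear (-3.09 ± 0.66, adjusted p = 4.61e-04) with the ends of the ranges overlapping. Cyp1b1 was lower in ear (-3.00 ± 0.26, adjusted p = 1.21e-10), as was Cyp2s1 (-1.42 ± 0.29, adjusted p = 2.46e-04). Of the 12 adipocyte markers 10 were lower and 1 higher in sham ear, with list means of 9.46 to 9.85, against 11.12 to 12.07 in sham back skin, and their part in the Cyp2e1 difference was not tested.

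The array of HDM back skin mouse 5 stood apart for P450 genes too. Of the 94 members 38 had their highest value of the group on it, against 4 to 11 on each of the other 7 arrays, and 49 members were above background there, against 26 to 31 on the others. For 14 members it led by at least 1 on the log2 scale, of which Cyp3a41a, Cyp3a11 and Cyp7a1, outside the naming rule, were singled out after their values were seen. Cyp3a41a was at 7.87 on it, against 2.63 to 3.68 on the other 7, and Cyp3a11 at 6.97, against 2.79 to 3.83. Cyp2e1 was at 10.99 on it and at 6.07 to 8.47 on the other 7. Cyp7a1, the first enzyme of bile acid synthesis, was at 6.58, against 3.88 to 5.23. These are genes of liver enzymes, and 10 of the 11 hepatocyte markers led on this array in the same way, G6pc at 3.67 being the exception. The HDM minus sham difference of Cyp2e1 in back skin was -0.57 ± 0.56 with the array (adjusted p = 0.563) and -1.06 without it (adjusted p = 0.153), and 0.03 without sham mice 1 and 2.

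**Figure D5:**
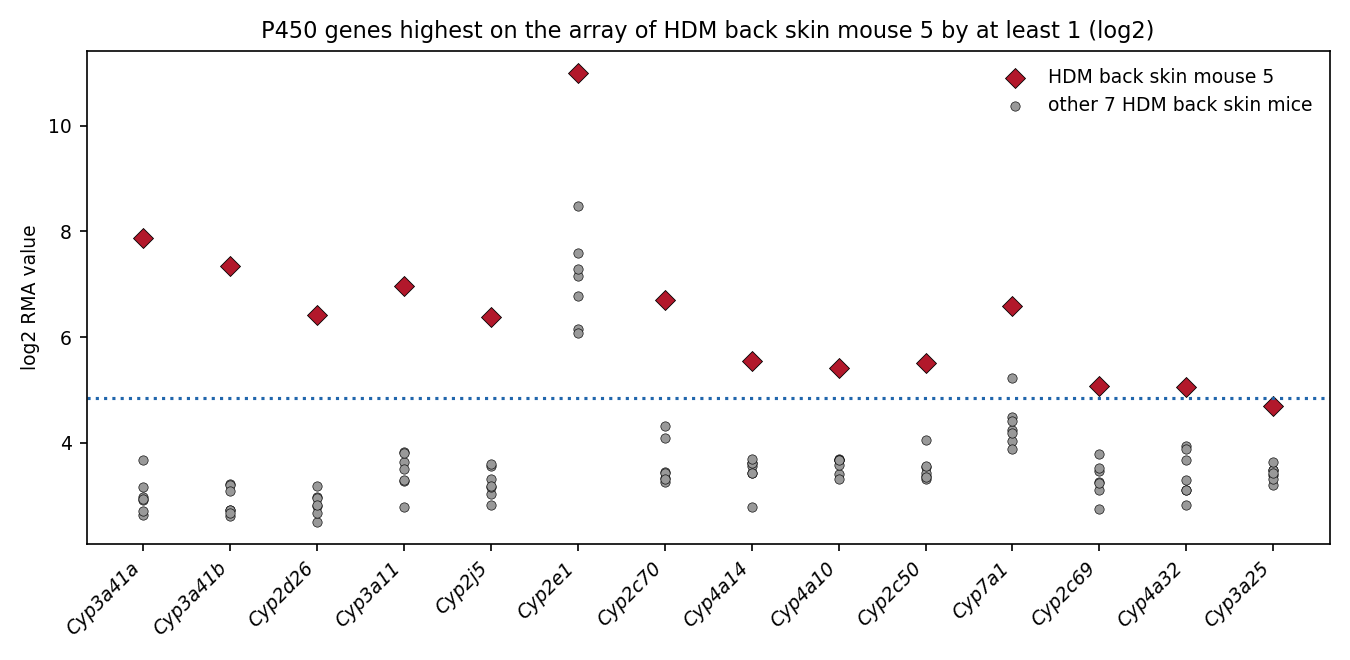
Log2 RMA value of the 14 P450 genes that led by at least 1 on the array of HDM back skin mouse 5 (diamonds), with the other 7 HDM back skin arrays (circles) and the mean background of the group, 4.84 (dotted line). Cyp3a41a has the widest gap, 7.87 against 2.63 to 3.68.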

How the data were processed

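Total RNA from 8 mm punches of back skin and ear was hybridised to 32 single-sample arrays, 8 per group. The authors deposited log2 values, and the submitters' processing notes name RMA and Transcriptome Analysis Console as the tools that made them. The genome build, like the tool versions, is not given in the sources used here. The deposited values run from 1.71 to 19.93, a wide range for RMA, and whether they were rescaled afterwards could not be told, so differences hold on the deposited scale. RMA pulls low signals together, which limits differences near background.

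Groups came from the labels. Of 28846 rows 6640 array controls were left out and 22206 were tested. A 4-group linear model with eBayes was fitted to all 32 arrays in R 4.3.3 with limma 3.58.1, with Benjamini-Hochberg adjustment over all tested rows and a threshold of 0.05. It gave HDM minus sham in back skin and in ear, the difference of both and sham ear minus sham back skin. It was tested on simulated data. Background was the median of 5222 negative control rows per array; "at least" folds use this floor where a group was below background on every array. The number of arrays limits the precision.

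Members were matched by symbol and placed by RefSeq gene order. The members and lists were chosen with earlier results of these data known. Named with values were, in each HDM comparison, the 6 called members with the largest difference in each direction, the 4 in each direction for the sham sites and for the difference between sites, and 16 members fixed by role, 29 in all. Other members that are described, Cyp46a1 and Cyp2b13 among them, fall outside this rule and were chosen after their values were seen. Promoter sequences are from RefSeq, GRCm38.p6. Alternatives covered array centring, a filter on dim rows, values set to background, the error model, the arrays in the fit, a stricter threshold, marker lists as covariates, mouse number as a block and arrays left out.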

Additional observations from a re-analysis of the deposited data

Results flagged for a closer look

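Among 96 gene and group pairs of 8 arrays, 4 held a lone array far from its group, and chance alone flags about 1 in 20. Cyp1a1 was at 5.22 in sham back skin mouse 6, against 6.24 to 6.84 on the other arrays of its group. Cyp2b19 was at 11.35 in sham ear mouse 4, against 12.06 to 12.59. Cyp2b23 was at 5.59 in HDM back skin mouse 3, against 4.32 to 4.89, and Cyp2j9 was at 5.39 on the same array, against 2.85 to 3.57.

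The HDM effect differed between ear and back skin for 6 named genes by the interaction term of the limma fit. The difference, ear minus back skin, was 6.43 for Cyp2g1, 3.52 for Cyp1b1, 3.30 for Cyp2b23, -1.62 for Cyp4f17, -1.74 for Cyp3a13 and -2.30 for Cyp39a1.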

How the results depend on the processing

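Direction and call were most open to the marker covariates. With sebaceous and adipocyte list means as covariates, 0 members were called higher and 1 lower in back skin, 0 higher and 0 lower in ear (limma; 9 and 7 in back skin and 3 and 2 in ear at an unadjusted p under 0.05), and 5 higher and 1 lower in sham ear against sham back skin. Over all rows 0.766%, 0.171% and 6.63% were called in these comparisons, so the loss is general. The difference between sites had 3 higher and 3 lower members there, with Cyp2j9 gained and Cyp3a13 lost, and 1.68% of all rows called. Of 62 results on named genes, 29 kept direction and call, 20 lost the call and 13 turned sign with these covariates. In back skin the turned values were 0.19 for Cyp1a1, 0.99 for Cyp2b10, 0.72 for Cyp2b19, 0.34 for Cyp2f2, 1.03 for Cyp4b1, -0.29 for Cyp7b1 and 0.15 for Cyp17a1. In ear they were 0.69 for Cyp2b10, 0.51 for Cyp2b23, 0.78 for Cyp2f2, 1.03 for Cyp4b1, -0.44 for Cyp4f18 and 0.41 for Cyp26a1. The agent and these lists cannot be told apart in back skin, nor the agent and the adipocyte list in ear. With values below background set to it, 72 members were lower in ear, 6 higher and 65 lower in the difference and 75 higher in sham ear against sham back skin. Of all 22206 rows 12221 were then lower in ear, 2314 higher and 9789 lower in the difference and 12119 higher in sham ear, since the floor itself averaged 4.82 in HDM ear and 5.20 in sham ear. Cyp27b1, below background on every array, then had -0.38 in ear. In back skin 3 members were higher with dim rows left out, 3 without sham mice 1 and 2, and 2 at an adjusted p under 0.01. Equal array medians moved the share of higher calls over all rows to 45.8% in place of 66.8% for the difference and to 67.3% in place of 52.6% for the sites. Without HDM back skin mouse 5, an alternative chosen after seeing the data, 60 of the 62 results kept direction and call. Same-numbered back skin and ear samples correlated at -0.113 to 0.14 in their deviations and matched best in 1 of 16 cases. The values thus showed no pairing by number. Since 2 tissues of 1 animal may vary apart, this does not settle whether an equal number means 1 animal. With the replicate block as a fixed term 4 members were higher and 16 lower in back skin and 3 higher and 17 lower in ear. No member had several rows, so averaging rows changed nothing, and fitting only the groups compared was not applied to the difference. Signals near background limit the dim members.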

Other observations

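Conjugating enzymes that act after P450 enzymes moved in both directions. Of 35 measured genes (40 listed) 5 were higher and 6 lower in HDM back skin and 3 higher and 9 lower in HDM ear, with list medians of -0.07 and -0.18. Gsto1, a glutathione transferase gene, rose by 1.97 ± 0.26 in back skin and 1.75 ± 0.26 in ear. Fmo2, a flavin monooxygenase gene, differed by -1.88 ± 0.47 in back skin and -3.07 ± 0.47 in ear. These 2 genes were chosen after their values were seen.

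Symbols outside the naming pattern were Cyp51, Cyp2ab1 and 3 pseudogenes. Cyp51, the sterol demethylase gene of cholesterol synthesis, averaged 14.72 in HDM and 15.25 in sham back skin and 15.96 in HDM and 16.27 in sham ear, and neither difference passed in limma (adjusted p = 0.144 and 0.367). Cyp2ab1 averaged 4.83 in HDM and 4.66 in sham back skin and 4.91 in HDM and 4.64 in sham ear. The pseudogenes were above background on no array.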
